A study of Rattus norvegicus with 8 samples.

Results

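Genes of sterol and fatty acid synthesis were followed in transplanted rat kidneys taken 24 h after surgery. The genes were named from the pathway, by a rule that refers to no measured value, but were chosen with earlier results of these data known. They comprise 18 enzymes of the sterol route, 6 regulators and carriers of sterol and 8 enzymes of fatty acid synthesis and modification. In all these are 32 genes. They were found on the array by gene symbol, older synonym or RefSeq accession, which gave 46 probes out of 41012. Of these 32 genes, 31 were among the 24462 genes that could be tested, and each of the 31 was well above background on all 8 arrays. The gene not tested was Scd, the stearoyl-CoA desaturase, whose probe was well above background on 0 of 8 arrays.

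Cholesterol is built from acetyl-CoA through mevalonate, isoprenoids, squalene and lanosterol, and fatty acids are built from acetyl-CoA through malonyl-CoA. Both routes are controlled by sterol regulatory element-binding proteins, which are held in the endoplasmic reticulum by SCAP and the INSIG proteins while sterol is plentiful and move to the nucleus when it is scarce. The tubular epithelium of the kidney makes cholesterol for its own membranes, and injured tubules are known to accumulate cholesterol and other lipids.

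Kidneys of male Dark Agouti rats were placed into male Lewis rats, which differ from them in the major histocompatibility complex and had lost both of their own kidneys, after 25 min at 4 °C in University of Wisconsin solution. All 4 groups therefore share the allograft, the cold storage and the nephrectomy, and no sham-operated or same-strain kidney was among the arrays analysed here. The anti-IL6R group received 1 intravenous injection of 500 µg of an antibody that neutralises the interleukin-6 receptor, and the prednisolone group 15 mg/kg of this glucocorticoid, each right after surgery. Both of these groups held high-difference grafts, in which the donor was 20 to 50% lighter than the recipient. The untreated high-difference group had the same weight gap, and in the untreated low-difference group the donor was 0 to 20% lighter. Animals weighed 120 to 250 g, and their age is not given in the labels. Each group had 2 arrays, numbered 1 and 2, which the submitters call biological replicates.

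A level here is the log2 of the array's processed signal minus that array's 75th percentile, so 0 is the signal that 75% of the probes stay below. Levels are compared between arrays for 1 probe at a time and never between probes. The treated groups lay on 1 slide and the untreated groups on the other, so treatment and slide cannot be told apart, whereas high against low difference and anti-IL6R against prednisolone were compared within a slide. Between 64.5% and 74.1% of the gene spots of an array were well above background. Some arrays stood apart over all genes. The leading axis of a principal component analysis (39% of the variance) put high-difference replicate 2 at -93.5. On it the prednisolone replicates, at -42.1 and 52.3, lay only just beyond the other 5 arrays, which were between -32.3 and 45.3. On the second axis the prednisolone replicates were at -63.6 and 49.1, high-difference replicate 2 at 45.6 and the other 5 arrays between -32.9 and 23.8. All 10 proximal tubule markers and all 7 markers of other nephron segments were well above background on all 8 arrays. Of the 9 T and NK cell markers only 3 were, so the medians of that list include values near background. Cd2, Cd3e, Cd4, Cd8a and Gzmb were on 0 high-difference arrays, and Cd3e and Cd4 passed the filter for testing only through the anti-IL6R group. Of the markers of neighbouring fat and adrenal tissue, which both make much lipid or sterol, Lep, Plin1, Cyp11a1, Cyp11b1 and Cyp11b2 were well above background on no more than 1 array, while Adipoq, Cidec, Fabp4, Lpl, Star and Hsd3b1 were on all 8 and Cyp21a1 was on 5.

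No sterol or fatty acid synthesis gene passed the test in any of the 4 comparisons (limma, Benjamini-Hochberg adjusted p under 0.05 over all 24462 genes), where 0% of all genes passed too. At an unadjusted p under 0.05, which 14.7%, 17.7%, 11.8% and 3.40% of all genes reached in high minus low difference, anti-IL6R minus high difference, prednisolone minus high difference and anti-IL6R minus prednisolone, the members counted 2, 0, 0 and 1 of 31. Both members in high minus low difference and the 1 in anti-IL6R minus prednisolone were higher, where 8.24% and 2.58% of all genes were higher and 6.43% and 0.822% lower at this p. In anti-IL6R minus high difference 7.09% of all genes were higher and 10.6% lower, and in prednisolone minus high difference 4.25% and 7.58%. None of the 31 differed by more than 1 log2 unit in any of the 4 comparisons, whereas 10.9%, 11.1%, 8.10% and 3.70% of all genes did, in the same order. The sizes were small beside the background: the median absolute log2 difference was 0.25, 0.19, 0.18 and 0.12 over the members and 0.33, 0.35, 0.30 and 0.18 over all genes tested. In whole tissue, fewer cells of a type and less RNA per cell cannot be told apart. The intervals of single genes stayed wide, as the plot of differences with their intervals shows, so a p above the threshold does not show that the groups had equal levels.

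**Figure D1:**
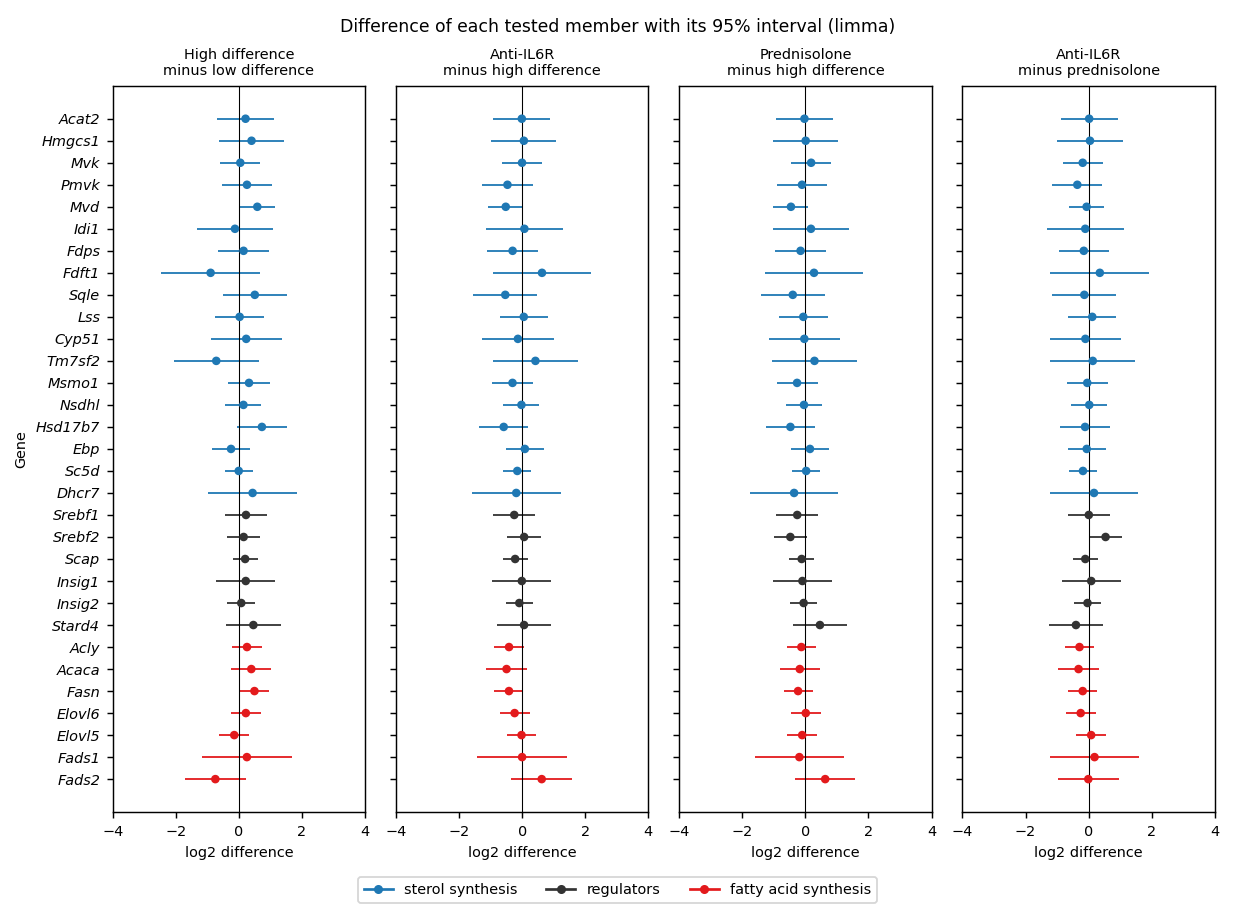
log2 difference (x axis) of each of the 31 tested genes (rows) in the 4 comparisons (panels). Points are limma estimates, lines their 95% intervals and colours the role of the gene. All points lie within 1 log2 unit of 0, and the intervals of Fdft1, Tm7sf2, Dhcr7, Fads1 and Idi1 are among the widest.

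The main feature of the sterol enzymes was a split within the prednisolone pair. Prednisolone replicate 2 lay above replicate 1 for 18 of 18 sterol enzymes, against 53.6% of all genes tested, and the median gap between the replicates was 0.73 log2 units, against 0.43 over all genes. For 6 of 18 the replicates were over 1 log2 unit apart, which held for 18.6% of all genes. Replicate 2 was the highest of the 8 arrays for 10 of 18 (15.2% of all genes), replicate 1 the lowest for 8 of 18 (21.3%), and both held for 6 of 18 (4.89%). In each of the other 3 groups replicate 2 lay above replicate 1 for 14 of 18, against 45.2%, 54.7% and 45.9% of all genes in anti-IL6R, high-difference and low-difference grafts. In the same order the median gaps were 0.18, 0.40 and 0.32 log2 units, against 0.22, 0.28 and 0.25 over all genes. The sterol gap was thus also above that of all genes in the high- and low-difference pairs. These counts describe 2 arrays that stand apart for many genes, and no test was made on them.

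The early enzymes of the route showed the split unevenly. Acat2, which joins 2 acetyl-CoA molecules in the cytosol, had levels of 2.69 and 3.52 in prednisolone grafts, and 2.57 to 3.37 on the other 6 arrays. Hmgcs1, which makes hydroxymethylglutaryl-CoA, had 2.63 and 2.50 in anti-IL6R grafts, 1.86 and 3.19 in prednisolone grafts, 2.34 and 2.68 in high-difference grafts, and 1.95 and 2.28 in low-difference grafts. Both extremes of Hmgcs1 over the 8 arrays were therefore prednisolone arrays. A second Hmgcs1 probe gave a gap of 1.54 log2 units between the prednisolone replicates, against 1.33 for the probe used.

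Mevalonate is then phosphorylated and decarboxylated by Mvk, Pmvk and Mvd. In these 3 genes the prednisolone replicates lay only 0.23, 0.16 and 0.19 log2 units apart. Mvd had levels of 1.46 and 1.72 in anti-IL6R grafts, 1.56 and 1.75 in prednisolone grafts, 1.96 and 2.26 in high-difference grafts, and 1.33 and 1.73 in low-difference grafts. Both high-difference arrays thus lay above the other 6. Pmvk stood out by high-difference replicate 2 at 2.78, the other 7 arrays being between 1.74 and 2.25.

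Between isopentenyl pyrophosphate and squalene, Idi1 and Fdft1 had wide splits and Fdps a narrower one. Idi1, the isomerase that supplies the reactive isoprenoid unit, had levels of 3.70 and 3.76 in anti-IL6R grafts, 3.00 and 4.67 in prednisolone grafts, 3.60 and 3.71 in high-difference grafts, and 3.63 and 3.94 in low-difference grafts. The 6 arrays without prednisolone spanned 3.60 to 3.94, and the 2 prednisolone arrays lay on either side of them; a second Idi1 probe gave a gap of 1.73 log2 units, against 1.67. Fdft1, squalene synthase, had 0.63 and 0.73 in anti-IL6R grafts, -0.76 and 1.41 in prednisolone grafts, 0.07 and 0.03 in high-difference grafts, and 1.25 and 0.65 in low-difference grafts. Its prednisolone gap of 2.16 log2 units was the largest among the members. Fdps, farnesyl pyrophosphate synthase, which acts between the 2, had a gap of 0.62.

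The steps from squalene to lanosterol and on to cholesterol differed among themselves. Sqle, squalene epoxidase, had levels of 2.58 and 3.04 in anti-IL6R grafts, 2.53 and 3.36 in prednisolone grafts, 3.03 and 3.67 in high-difference grafts, and 2.46 and 3.23 in low-difference grafts, so replicate gaps of 0.46 to 0.83 log2 units covered any difference between groups. Lss, lanosterol synthase, and Cyp51, lanosterol demethylase, had prednisolone gaps of 0.94 and 1.15. Tm7sf2, a sterol reductase, had 3.58 and 3.04 in anti-IL6R grafts, 2.27 and 4.08 in prednisolone grafts, 2.90 and 2.88 in high-difference grafts, and 3.76 and 3.46 in low-difference grafts. Dhcr7, the reductase of the last step of 1 branch, had 2.72 and 2.96 in anti-IL6R grafts, 1.72 and 3.62 in prednisolone grafts, 3.29 and 2.77 in high-difference grafts, and 2.54 and 2.66 in low-difference grafts. Tm7sf2 and Dhcr7 resembled Idi1 in having both extremes in the prednisolone group.

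Of the remaining enzymes, which act after Cyp51 on methyl groups, the keto group or double bonds of the sterol, the prednisolone gaps were below the sterol median of 0.73. The gap was 0.62 log2 units for Msmo1, 0.02 for Nsdhl, 0.20 for Hsd17b7, 0.02 for Ebp and 0.22 for Sc5d. Hsd17b7 had levels of -1.21 and -0.95 in anti-IL6R grafts, -1.07 and -0.87 in prednisolone grafts, -0.61 and -0.38 in high-difference grafts, and -1.68 and -0.76 in low-difference grafts. Both high-difference arrays lay above the other 6, and low-difference replicate 1 lay far below the rest. Sc5d had the smallest range of the sterol enzymes, 0.38 log2 units over the 8 arrays.

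**Figure D2:**
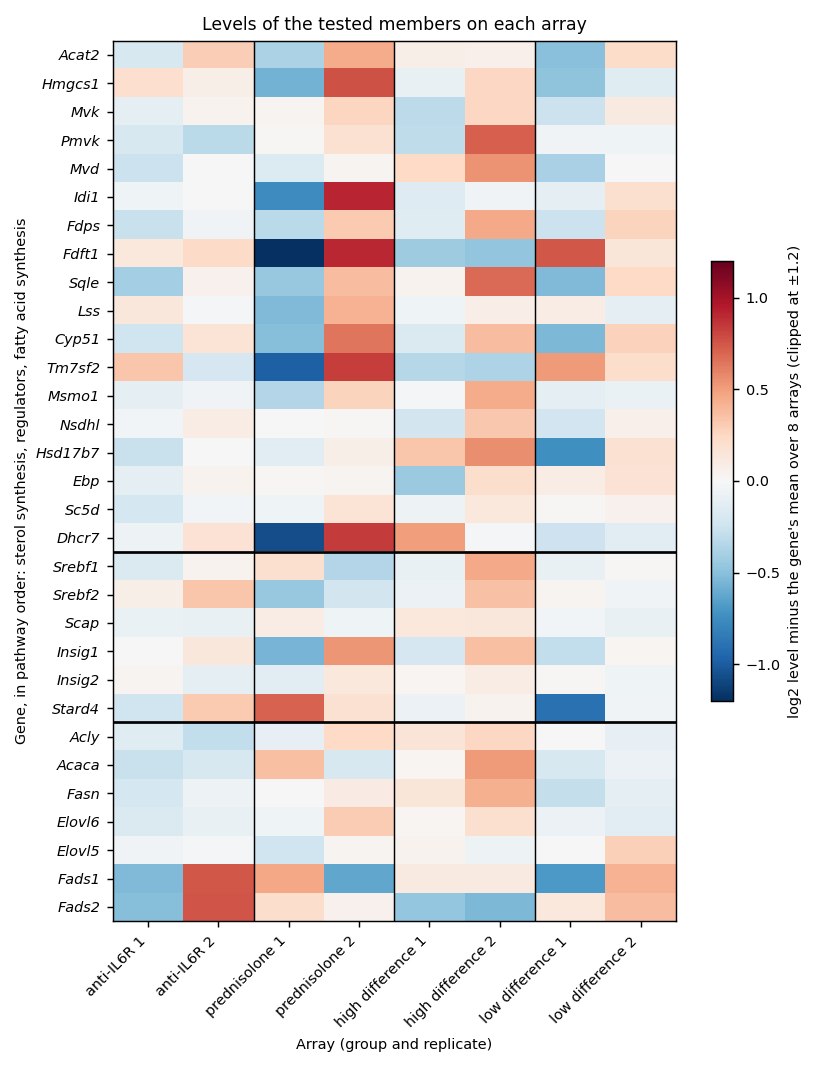
Level of each of the 31 tested genes (rows, by role) on each of the 8 arrays (columns, grouped), as the log2 level minus the gene's mean over the 8 arrays. Blue is below and red above that mean, and prednisolone 1 and 2 show opposite colours in Hmgcs1, Idi1, Fdft1, Lss, Cyp51, Tm7sf2 and Dhcr7.

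The split was described further because markers of kidney and blood cells moved between the same 2 arrays. Centred on their mean over the arrays, the sterol enzymes had a median of -0.37 on prednisolone replicate 1 and 0.34 on replicate 2. The 7 markers of other nephron segments had -0.51 and 0.93, and the 10 proximal tubule markers -0.32 and 0.00. The 8 macrophage and monocyte markers had 1.24 and -0.60, and the 9 T and NK cell markers 0.97 and -0.67. The 4 tested fat markers had -0.36 and 0.50, the 3 tested adrenal markers -0.94 and 0.22, and the 6 endothelial markers 0.20 and 0.02. Between the high-difference replicates the sterol median was -0.12 and 0.25, while the other nephron markers were at -0.37 and -1.05 and the proximal tubule markers at 0.34 and -1.10. In the same high-difference pair the fat markers were at -0.23 and -0.80, the adrenal markers at 0.03 and -0.02, and the endothelial markers at -0.29 and -1.08. The part of tissue make-up in the split was not tested.

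**Figure D3:**
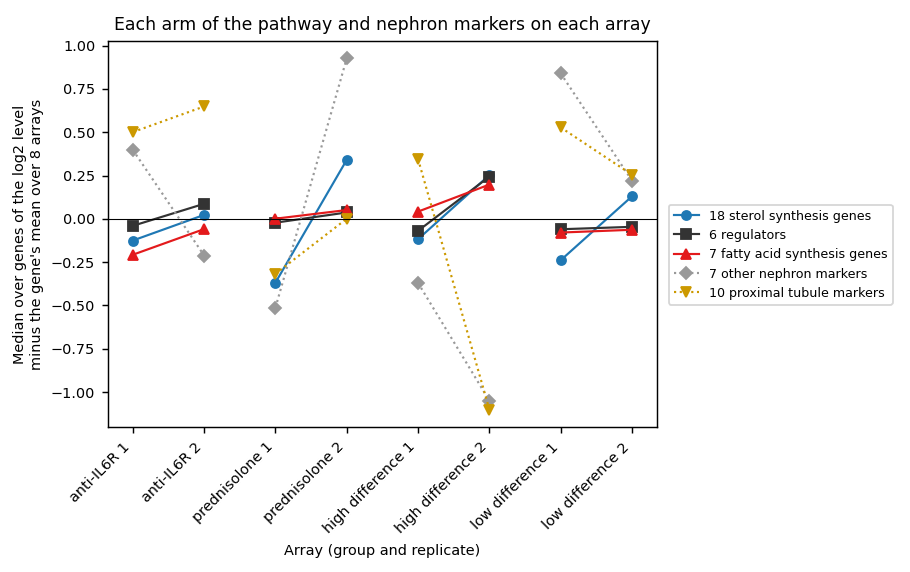
Median over the genes of a list (y axis) of the log2 level minus the gene's mean over the 8 arrays, for each array (x axis, lines join the replicates of a group). The 18 sterol enzymes stand at -0.37 and 0.34 in the prednisolone pair, where the 7 fatty acid enzymes stand at 0.00 and 0.05.

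Among the regulators, only Insig1 shared the wide split. Insig1, itself a known target of the binding proteins, had levels of 3.32 and 3.45 in anti-IL6R grafts, 2.76 and 3.84 in prednisolone grafts, 3.11 and 3.68 in high-difference grafts, and 3.02 and 3.34 in low-difference grafts. All 4 of its probes gave a prednisolone gap, of 1.07 to 1.31 log2 units. The transcription factor Srebf2, the main activator of the sterol enzymes, had -2.84 and -2.58 in anti-IL6R grafts, -3.36 and -3.13 in prednisolone grafts, -2.98 and -2.56 in high-difference grafts, and -2.88 and -2.95 in low-difference grafts. Both of its prednisolone arrays were thus the lowest of the 8. Srebf1, the main activator of fatty acid synthesis, had 2.87 and 3.09 in anti-IL6R grafts, 3.24 and 2.70 in prednisolone grafts, 2.96 and 3.50 in high-difference grafts, and 2.96 and 3.06 in low-difference grafts, with its prednisolone replicates in the opposite order to the sterol enzymes.

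The remaining regulators varied little, apart from the sterol carrier. Scap, the escort of the binding proteins, ranged over 0.24 log2 units on the 8 arrays, and Insig2 over 0.26. Stard4, which carries cholesterol between membranes, ranged over 1.60, with prednisolone replicate 1 the highest array at -1.18 and low-difference replicate 1 the lowest at -2.78. A second Insig2 probe differed in sign from the probe used in all 4 comparisons, with differences between -0.47 and 0.15.

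The fatty acid enzymes did not share the split as a list: prednisolone replicate 2 lay above replicate 1 for 4 of 7, with a median gap of 0.34 log2 units. Acly, which supplies cytosolic acetyl-CoA, had 3.40 and 3.25 in anti-IL6R grafts, 3.44 and 3.78 in prednisolone grafts, 3.70 and 3.79 in high-difference grafts, and 3.54 and 3.44 in low-difference grafts. Acaca, acetyl-CoA carboxylase, had 2.03 and 2.11 in anti-IL6R grafts, 2.66 and 2.11 in prednisolone grafts, 2.32 and 2.81 in high-difference grafts, and 2.11 and 2.23 in low-difference grafts. In both genes the anti-IL6R arrays lay below both high-difference arrays. Fasn, fatty acid synthase, had 2.71 and 2.86 in anti-IL6R grafts, 2.92 and 3.02 in prednisolone grafts, 3.06 and 3.34 in high-difference grafts, and 2.63 and 2.80 in low-difference grafts. Both high-difference arrays of Fasn were above the other 6, and its replicates lay 0.11 to 0.28 log2 units apart.

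Elongases and desaturases completed the route. Elovl6, which lengthens palmitate, had 1.58 and 1.67 in anti-IL6R grafts, 1.70 and 2.06 in prednisolone grafts, 1.78 and 1.95 in high-difference grafts, and 1.68 and 1.62 in low-difference grafts. Elovl5, an elongase of polyunsaturated fatty acids, stayed between -4.52 and -3.99. The desaturases of polyunsaturated fatty acids had wide gaps in some groups: Fads1 replicates lay 1.28, 1.09, 0.00 and 1.12 log2 units apart in anti-IL6R, prednisolone, high-difference and low-difference grafts. Fads2 had -4.21 and -2.95 in anti-IL6R grafts, -3.49 and -3.65 in prednisolone grafts, -4.16 and -4.24 in high-difference grafts, and -3.57 and -3.33 in low-difference grafts. Scd lay between -8.05 and -6.84 on the 8 arrays, not well above background on any, so no order is read from its values.

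**Figure D4:**
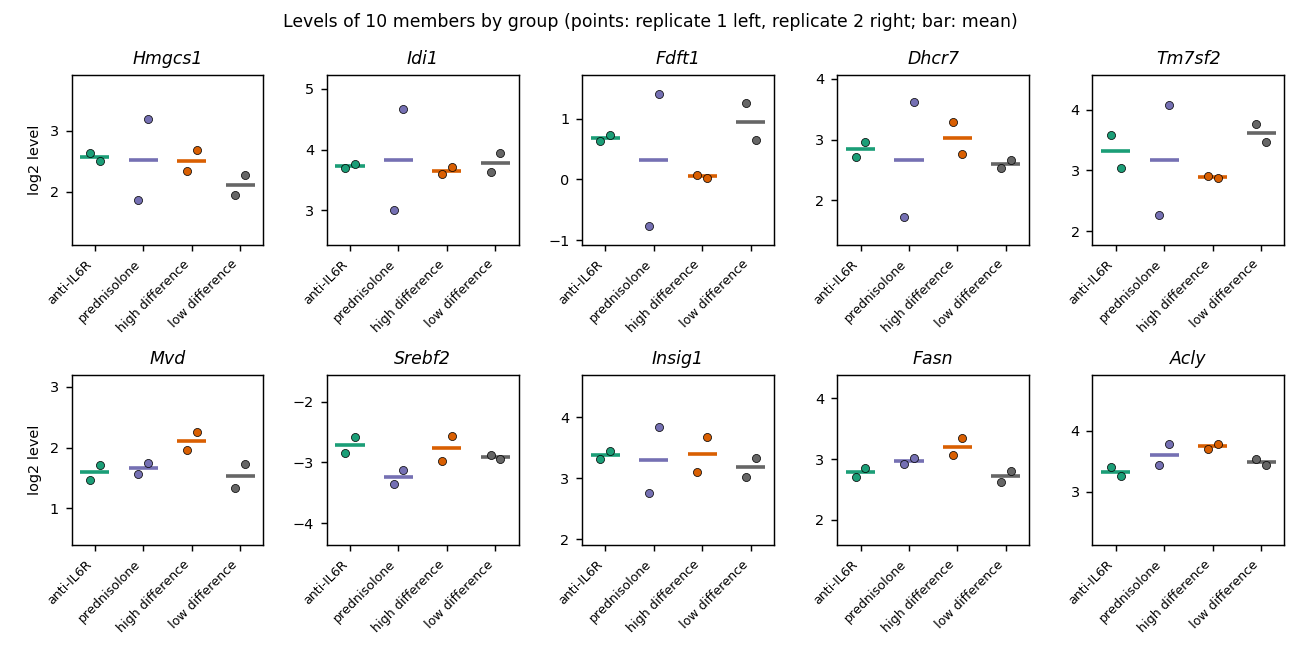
log2 level (y axis) of 10 genes by group (x axis). Each point is an array, replicate 1 left and replicate 2 right, the bar is the mean of the 2, and all panels span the same number of log2 units. The prednisolone points of Hmgcs1, Idi1, Fdft1, Dhcr7 and Tm7sf2 enclose all other points, whereas those of Fasn and Mvd lie close together.

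High against low difference asks whether a lighter donor alters the graft. More members lay above than below 0, 24 of 31, against 56.0% of all genes tested, with a median log2 difference of 0.22 over members and 0.07 over all genes. The medians were 0.18 for the 18 sterol enzymes, 0.20 for the 6 regulators and 0.25 for the 7 fatty acid enzymes. The 2 arrays of each group did not overlap for 14 of 31 members, below the 56.5% of all genes. Of the 14, 11 were higher and 3 lower in high-difference grafts, against 33.5% and 23.0% of all genes. High-difference replicate 2 was the highest of the 8 arrays for 14 of 31 members, and for 7074 of all 24462 genes tested. Without this array the sterol median was -0.08, the regulator median -0.002 and the fatty acid median 0.14. Without high-difference replicate 1 they were 0.37, 0.42 and 0.30. Cell markers differed more in the same comparison, with a median of -0.58 over 10 proximal tubule markers (8 below 0), -1.397 over 7 markers of other nephron segments (7 below), -1.33 over 8 macrophage and monocyte markers (7 below), -1.53 over 9 T and NK cell markers (9 below) and -0.80 over 4 fat markers (4 below). In the T and NK list, Cd3e and Cd4 were not well above background on any high- or low-difference array. Cd2, Cd8a and Gzmb were not on either high-difference array. The 6 endothelial markers had a median of -0.78 (6 below 0), and the 3 tested adrenal markers had differences of -0.89 to 2.03. The part of these cells in the members' differences was not tested here or in the other comparisons.

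Fasn was 1.41-fold higher in high-difference than in low-difference grafts, a log2 difference of 0.49 ± 0.19 (SE, limma), with an unadjusted p of 0.0396 and an adjusted p of 0.33. Mvd followed with 0.58 ± 0.23 (unadjusted p = 0.0425, adjusted p = 0.33 by limma and Benjamini-Hochberg). Hsd17b7 differed by 0.73 ± 0.32 and Fads2 by -0.75 ± 0.40, with adjusted p-values of 0.35 and 0.40 by limma, and with normexp background correction Fads2 differed by -0.13. These 4 had the smallest p-values among the members. In each the groups did not overlap, which a small p makes likely and which held for 56.5% of all genes. Of the followed genes, Sqle differed by 0.50 ± 0.42, Hmgcs1 by 0.40 ± 0.43, Acaca by 0.39 ± 0.26 and Idi1 by -0.13 ± 0.50. Single arrays weighed on these values: without low-difference replicate 1 and without low-difference replicate 2, Sqle differed by 0.115 and 0.89 and Hsd17b7 by 0.26 and 1.19. Without high-difference replicate 1 and without replicate 2, Acaca differed by 0.64 and 0.14 and Sqle by 0.82 and 0.18. The regulators Insig1, Srebf1 and Srebf2 differed by 0.21 ± 0.39, 0.22 ± 0.27 and 0.15 ± 0.22, and Elovl6 by 0.22 ± 0.20. A second Elovl6 probe gave 0.04 and a second Fasn probe 0.44. The largest absolute difference was that of Fdft1, -0.90 ± 0.65, whose 95% interval ran from -2.47 to 0.67.

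Antibody against the interleukin-6 receptor was compared with untreated grafts of the same weight class. Here 9 of 31 members lay above 0 and 22 below, against 43.2% of all genes above 0, and the median log2 difference was -0.09 over both the members and all genes. The medians were -0.08 for sterol enzymes, -0.05 for regulators and -0.24 for fatty acid enzymes, of which 6 of 7 lay below 0. Groups did not overlap for 10 of 31 members, against 59.8% of all genes, 2 of them higher and 8 lower (23.5% and 36.3% of all genes). Without high-difference replicate 2 the sterol and fatty acid medians were 0.08 and -0.15, and without replicate 1 they were -0.27 and -0.33. The marker medians were 0.97 for proximal tubule (8 of 10 above 0), 1.11 for other nephron segments (6 of 7), 2.22 for macrophages and monocytes (8 of 8), 2.33 for T and NK cells (9 of 9) and 0.89 for fat (3 of 4), and the adrenal markers ran from -1.72 to 0.996.

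Mvd had the smallest p, with a log2 difference of -0.52 ± 0.23 (SE, limma, adjusted p = 0.30). Next were Fasn at -0.42 ± 0.19, Acly at -0.42 ± 0.19 and Acaca at -0.50 ± 0.26, with adjusted p-values of 0.31, 0.31 and 0.36 by limma. In these 4 genes, picked by their p, both anti-IL6R arrays lay below both high-difference arrays, which held for 36.3% of all genes. Sqle differed by -0.54 ± 0.42, Elovl6 by -0.24 ± 0.20 and Srebf1 by -0.25 ± 0.27, while Hmgcs1, Idi1, Srebf2 and Insig1 lay within 0.07 of 0. The Srebf2 value of 0.06 and the Insig1 value of -0.01 had the opposite sign for other probes of these genes, at -0.13 and up to 0.20. A second Elovl6 probe gave -0.007 and a second Fasn probe -0.36.

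Prednisolone was compared with the same untreated grafts, so the comparisons with high-difference grafts share those 2 arrays. Of 31 members, 10 lay above 0 and 21 below, against 42.4% of all genes above 0, with a median log2 difference of -0.09 over members and -0.08 over all genes. Groups did not overlap for 7 of 31 members, against 38.9% of all genes, 2 of them higher and 5 lower (13.9% and 25.0% of all genes). The sterol median of -0.04 averaged 2 unlike arrays: without prednisolone replicate 2 it was -0.56, and without replicate 1 it was 0.23. It was 0.16 without high-difference replicate 2 and -0.17 without replicate 1. The marker medians were 0.18 for proximal tubule, 0.83 for other nephron segments, 1.73 for macrophages and monocytes, 1.07 for T and NK cells and 0.31 for fat, and the adrenal markers ran from -1.73 to 0.06. The 6 endothelial markers had a median of 0.765 (6 above 0). The fatty acid median of -0.13 was -0.17 without prednisolone replicate 2 and 0.03 without prednisolone replicate 1.

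Srebf2 had the smallest p among the members, at -0.48 ± 0.22 (SE, limma, adjusted p = 0.45), and its second probe gave -0.22. Mvd differed by -0.46 ± 0.23, Fads2 by 0.63 ± 0.40 and Hsd17b7 by -0.47 ± 0.32, with adjusted p-values of 0.47, 0.54 and 0.57 by limma, and with normexp background correction Fads2 differed by 0.08. In all 4, picked by their p, the arrays of the groups did not overlap, which held for 38.9% of all genes. The genes of the split had differences near 0 with wide intervals: Hmgcs1 differed by 0.01 (95% interval -1.02 to 1.04), Idi1 by 0.18 (-1.04 to 1.39) and Insig1 by -0.09 (-1.03 to 0.84). Sqle differed by -0.40 ± 0.42, Srebf1 by -0.26 ± 0.27, Fasn by -0.23 ± 0.19, Acaca by -0.18 ± 0.26 and Elovl6 by 0.01 ± 0.20. A second Fasn probe gave -0.02 and a second Elovl6 probe 0.18.

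The antibody set against prednisolone gave the smallest differences. Of 31 members, 12 lay above 0 and 19 below, against 48.1% of all genes above 0, with medians of -0.06 over sterol enzymes, -0.01 over regulators and -0.19 over fatty acid enzymes. Groups did not overlap for 7 of 31 members, against 26.2% of all genes, 1 of them higher and 6 lower (11.9% and 14.3% of all genes). Srebf2 differed by 0.54 ± 0.22, a 1.45-fold higher level in anti-IL6R than in prednisolone grafts (limma, unadjusted p = 0.0480, adjusted p = 0.9999), and its second probe gave 0.09. Acly differed by -0.29 ± 0.19, Elovl6 by -0.25 ± 0.20 and Acaca by -0.32 ± 0.26, and in each both anti-IL6R arrays lay below both prednisolone arrays. Fasn differed by -0.19 ± 0.19, Sqle by -0.14 ± 0.42, Hmgcs1 by 0.04 ± 0.43, Idi1 by -0.11 ± 0.50, Insig1 by 0.08 ± 0.39 and Srebf1 by 0.01 ± 0.27, all within their SE. Second probes gave -0.34 for Fasn, -0.19 for Elovl6 and -0.12 for Srebf1. The sterol median was -0.42 without prednisolone replicate 1 and 0.27 without replicate 2, and the fatty acid median was -0.05 without replicate 1. The marker medians were 1.05 for proximal tubule, -0.10 for other nephron segments and 0.25 for endothelium. They were 0.38 for macrophages and monocytes, 1.11 for T and NK cells and 0.66 for fat.

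Promoters are shown for 4 of the 6 sterol genes whose prednisolone replicates were over 1 log2 unit apart. They were chosen after their values were seen, to set their proximal sequence beside the split. The other genes with such a gap, Fdft1 and Cyp51, are not shown. The RefSeq table of the GRCr8 assembly, from the Brown Norway reference strain, held a promoter of 300 bases for 25 of the 32 genes, 15 of them sterol enzymes. The 160 bases before each annotated start are printed 5′ to 3′ on the gene's strand, with CCAAT boxes (CCAAT, or its reverse complement) and GC boxes (GGGCGG, or its reverse complement) in capitals. They lie at chr17:66547525-66547684 (minus strand) for Idi1, chr2:53382144-53382303 (plus) for Hmgcs1, chr1:212789542-212789701 (minus) for Tm7sf2 and chr1:208444274-208444433 (plus) for Dhcr7.
Idi1: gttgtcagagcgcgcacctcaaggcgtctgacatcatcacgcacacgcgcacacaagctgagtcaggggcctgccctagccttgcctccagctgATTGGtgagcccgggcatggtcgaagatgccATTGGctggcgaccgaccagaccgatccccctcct
Hmgcs1: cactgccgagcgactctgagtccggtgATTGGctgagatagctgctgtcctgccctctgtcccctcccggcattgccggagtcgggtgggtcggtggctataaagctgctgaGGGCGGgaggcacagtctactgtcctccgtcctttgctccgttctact
Tm7sf2: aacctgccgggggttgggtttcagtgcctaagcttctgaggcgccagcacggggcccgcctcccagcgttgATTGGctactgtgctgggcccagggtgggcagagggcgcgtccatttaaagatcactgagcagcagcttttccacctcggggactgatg
Dhcr7: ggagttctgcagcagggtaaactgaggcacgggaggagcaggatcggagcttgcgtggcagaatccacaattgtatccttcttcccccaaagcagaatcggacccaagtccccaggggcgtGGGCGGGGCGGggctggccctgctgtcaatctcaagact

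Idi1 carries 2 CCAAT boxes in this stretch, Hmgcs1 has 1 and a GC box, Tm7sf2 has 1, and Dhcr7 has none but 2 overlapping GC boxes. The CCAAT box is bound by NF-Y and the GC box by Sp1, known partners of the sterol regulatory element-binding proteins. Over the whole 300 bases and both strands, CCAAT occurred in 19 of the 25 member promoters and in 12 of the 15 of sterol enzymes, against 37.5% of the 33469 promoters in the table. At least 2 CCAAT boxes were found in 10 of the 15, against 11.2% of all promoters. GGGCGG occurred in 20 of the 25, against 33.1%, and the E-box CACGTG in 4 of 25, against 6.42%. The letters TCACNCCAC, 1 form of the sterol regulatory element, were in 0 of the 25 windows and in 1.12% of all, which says only that these letters are not in these windows. These matches are descriptions of sequence and carry no measurement of binding.

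Further genes of the pathway, from 3 lists, did not pass the test either (0 of 37 tested, limma, adjusted p under 0.05). Of 10 other genes of sterol synthesis and sterol-sensing, 0 had an unadjusted p under 0.05 in any of the 4 comparisons, against 14.7%, 17.7%, 11.8% and 3.40% of all genes. Acss2, which makes acetyl-CoA from acetate, showed a wide prednisolone split too, with levels of 2.27 and 1.91 in anti-IL6R grafts, -0.76 and 3.05 in prednisolone grafts, 1.69 and 0.01 in high-difference grafts, and 3.26 and 2.22 in low-difference grafts. Nus1, a subunit of the enzyme that makes dolichol, differed by 0.52 ± 0.29 in high minus low difference and by -0.55 ± 0.29 in anti-IL6R minus high difference.

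Among 20 other genes of fatty acid and glycerolipid synthesis, 4 had an unadjusted p under 0.05 in high minus low difference, 3 higher and 1 lower, against 14.7% of all genes (8.24% higher and 6.43% lower). Acsl5, which activates long-chain fatty acids, had 3.21 and 3.35 in high-difference grafts and 2.62 and 2.63 in low-difference grafts, a log2 difference of 0.65 ± 0.19 (limma, adjusted p = 0.31). Gpam, which starts glycerolipid synthesis, differed by 0.64 ± 0.19, and Scd2, a second stearoyl-CoA desaturase, by -1.005 ± 0.35, with adjusted p-values of 0.31 and 0.32 by limma. In all 3, picked by their p, the high- and low-difference arrays did not overlap, which held for 56.5% of all genes. In anti-IL6R minus high difference 5 of the 20 had an unadjusted p under 0.05, all lower, against 17.7% of all genes (10.6% lower). The smallest p was that of Me1, a source of NADPH for fatty acid synthesis, with 4.67 and 4.87 in anti-IL6R grafts and 5.58 and 5.48 in high-difference grafts (-0.76 ± 0.22, limma, adjusted p = 0.22). Gpam differed there by -0.63 ± 0.19 and Acsl4, which prefers arachidonic acid, by -0.96 ± 0.36.

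Of 7 genes of liver X receptor signalling, efflux and sterol storage, Abcg1, which exports cholesterol from macrophages and other cells, had the largest difference in 3 of the 4 comparisons. Its levels were 1.97 and 1.38 in anti-IL6R grafts, 2.24 and 1.42 in prednisolone grafts, 0.93 and -0.10 in high-difference grafts, and 2.82 and 1.80 in low-difference grafts. The log2 difference was -1.89 ± 0.52 in high minus low difference (limma, adjusted p = 0.31), 1.26 ± 0.52 in anti-IL6R minus high difference and 1.41 ± 0.52 in prednisolone minus high difference (adjusted p = 0.28 and 0.39 by limma). Of the 8 tested macrophage and monocyte markers, 7 lay below 0 in high minus low difference (Cd14 was at 0.39), and 8 lay above 0 in both comparisons of a treated group with high-difference grafts. Their summed signal, in which bright probes weigh most, relative to each array's 75th percentile, was 48.5 to 70.9 in anti-IL6R grafts, 21.3 to 80.8 in prednisolone grafts, 10.9 to 14.4 in high-difference grafts, and 35.7 to 51.7 in low-difference grafts. The part of these cells in the Abcg1 values was not tested. Mylip, which marks lipoprotein receptors for degradation, was not well above background on either high-difference array, and low-difference grafts were at least 1.95-fold higher (fitted log2 difference -1.37, limma, adjusted p = 0.33).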

How the data were processed

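RNA of 8 grafts, 1 µg each, was labelled with Cy3 and hybridised to 1-colour Agilent arrays, per the labels' protocols. The authors' deposited files hold, per spot, the processed signal intensity of Agilent Feature Extraction 9.5.1.1, background-subtracted and detrended within the array, with surrogate values for low signals and no scaling between arrays, per the file headers. The deposited value table holds the same intensity times 1 factor per array and served as an alternative.

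After removal of control spots and outlier flags, signals were put on the log2 scale relative to the 75th percentile of their array. Testing required a signal well above background on both arrays of 1 or more groups; 765 probes flagged on an array and 11561 dim ones were not tested. A gene was the probe of highest mean level. Probe names were updated through the RefSeq gene table (GRCr8): 10735 probes were named through an accession, 5577 through a symbol and 3730 through a synonym, while 20970 retained their deposited name. For Srebf1, 2 probes of adducin with the same synonym were left out. Acaca and Fdps each had 1 flagged probe. Saturated spots were kept, and no member was saturated on any array. The number of arrays limits the precision.

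All 8 arrays entered 1 limma 3.58.1 fit in R 4.3.3 (lmFit, contrasts.fit, eBayes; 4 residual and 2.37 prior degrees of freedom), with Benjamini-Hochberg adjustment over 24462 genes and a threshold of 0.05. The method was tested on simulated data. An exact permutation test of 2 arrays against 2 cannot give a two-sided p below 0.33, so none was used. Where a group was not well above background on either array, its fold is a bound against the higher of its own level and the lowest signal well above background.

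The members, the other lists and the rules were chosen with earlier results of these data known. The naming rule gave values for 10 followed genes (Hmgcs1, Sqle, Idi1, Insig1, Srebf1, Srebf2, Fasn, Acaca, Scd and Elovl6), for the 4 members with the smallest p in each comparison, and for other pathway genes among the 3 smallest p of their list. Values of Fdft1, Tm7sf2, Dhcr7 and Acss2 in all arrays were added after they were seen. Of the other lists, Mbtps2 had a flagged probe and Elovl1 and Plin2 had no probe under these names. Alternatives were normexp background correction, quantile normalization, the deposited table, other filters, the mean of a gene's probes, eBayes with trend, separate fits, a replicate block and leaving out each array. Deviations of same-numbered replicates of different groups had correlations of both signs over all genes, from -0.35 to 0.37, and the numbers were not taken as pairs. Among the members, replicate 2 lay above replicate 1 for 24, 25, 25 and 22 of 31 in anti-IL6R, prednisolone, high-difference and low-difference grafts. Over all genes this held for 45.2%, 53.6%, 54.7% and 45.9%. A shift shared by replicate number in these genes was not tested.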

Additional observations from a re-analysis of the deposited data

How the results depend on the processing

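No sterol or fatty acid synthesis gene passed the adjusted threshold under any alternative run, leaving out each array included. Quantile normalization called 3, 7, 4 and 2 genes among all tested in high minus low difference, anti-IL6R minus high difference, prednisolone minus high difference and anti-IL6R minus prednisolone, where the main processing called 0. With the replicate block 0 genes passed in each of the 4 comparisons, with 2865, 3531, 2430 and 736 genes at an unadjusted p under 0.05, against 3589, 4333, 2893 and 831 without it, and it changed no call. Slide as a block could not be fitted for treated against untreated groups and adds nothing within a slide. The fatty acid median in high minus low difference was 0.15 with normexp, and in anti-IL6R minus high difference -0.33 without the filter on dim probes and -0.12 with the mean of a gene's probes. The regulator median with normexp was -0.30 in prednisolone minus high difference and 0.13 in anti-IL6R minus prednisolone, the sign opposite to the main value in the last. The other 107 of 112 list medians moved by less than the spread between replicates. For sterol enzymes this spread was 0.32, larger than each main sterol median (0.18, -0.08, -0.04 and -0.06), so a median could turn sign and still count here. With quantile normalization the sterol median turned to 0.007 in prednisolone minus high difference, and the regulator median to 0.006 in anti-IL6R minus prednisolone. The 112 also include the trend, block and separate fits, which cannot move a median. Of 405 single-gene differences 8 turned sign, all close to 0: Srebf2 in anti-IL6R minus high difference (-0.17 with normexp, -0.003 with quantile normalization, -0.035 with the mean of probes), Insig1 there (0.13 with quantile normalization, 0.054 with the mean of probes), Insig1 in prednisolone minus high difference (0.006 with quantile normalization), and in anti-IL6R minus prednisolone Hmgcs1 (-0.025 with normexp) and Srebf1 (-0.057 with the mean of probes). The cause was not tested. The trend, block and separate fits leave these differences unchanged by construction. The deposited table and the filters use the same probes for these genes and left the values almost the same. Only normexp, quantile normalization and the mean of a gene's probes could therefore turn a sign, while the 405 include the other alternatives too. With no change of sign, normexp moved Fads2 to -0.131 in high minus low difference and 0.081 in prednisolone minus high difference, where Fasn was at -0.404 and Insig1 at -0.312, and Srebf2 to 0.351 and Insig1 to 0.275 in anti-IL6R minus prednisolone. The prednisolone gap of the sterol enzymes was 0.68 to 0.80 log2 units under 4 alternatives chosen after seeing the data. Replicate 2 lay above replicate 1 in 17 of 18 with quantile normalization and in 18 of 18 otherwise. Over all genes this held for 65.6% with normexp and 50.6% with quantile normalization. It held for 53.6% with the deposited table and 54.2% with the mean of a gene's probes. With normexp the all-gene median of replicate 2 minus replicate 1 was 0.249, against 0.055 in the main processing, so its sterol gap includes a shift of all genes. Scaling moved the median log2 difference of all genes by over 0.1 in anti-IL6R minus high difference with normexp, to -0.22 from a main value of -0.09.

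Leaving out each array in turn, which leaves 1 array in a group that is assumed to vary like the others, called 0 to 39 genes in high minus low difference, 0 to 169 in anti-IL6R minus high difference, 0 to 224 in prednisolone minus high difference and 0 to 130 in anti-IL6R minus prednisolone. The highest counts came without high-difference replicate 1 in the first and without a prednisolone replicate in the others. In the same order of comparisons, the sterol median ranged from -0.076 to 0.371, -0.271 to 0.078, -0.563 to 0.228 and -0.419 to 0.273, and the fatty acid median from 0.142 to 0.300, -0.344 to -0.153, -0.173 to 0.032 and -0.296 to -0.053. Some single genes turned sign when an array was left out, and others kept it over a wide range, such as Sqle (0.115 to 0.890), Acaca (0.142 to 0.640) and Hsd17b7 (0.264 to 1.189) in high minus low difference and Sqle (-0.855 to -0.217) and Acaca (-0.746 to -0.247) in anti-IL6R minus high difference. Those that turned sign ranged in high minus low difference from -0.286 to 0.031 for Idi1, -0.069 to 0.499 for Insig1, -0.044 to 0.488 for Srebf1 and -0.058 to 0.354 for Srebf2. In anti-IL6R minus high difference the ranges were -0.117 to 0.222 for Hmgcs1, -0.295 to 0.272 for Insig1, -0.518 to 0.013 for Srebf1 and -0.145 to 0.267 for Srebf2. In prednisolone minus high difference they were -0.657 to 0.674 for Hmgcs1, -0.815 to 0.014 for Sqle, -0.659 to 1.011 for Idi1, -0.631 to 0.442 for Insig1, -0.528 to 0.009 for Srebf1, -0.450 to 0.095 for Acaca and -0.167 to 0.191 for Elovl6. In anti-IL6R minus prednisolone they were -0.621 to 0.709 for Hmgcs1, -0.551 to 0.278 for Sqle, -0.941 to 0.730 for Idi1, -0.454 to 0.620 for Insig1 and -0.262 to 0.276 for Srebf1.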
